A study of Mus musculus with 28 samples.

Results

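The fibroblast growth factors (FGFs) of the hair follicle and their receptors were examined in mouse dorsal skin that lacked the adaptor Gab1 in its keratinocytes. Members were all array probes whose platform symbol was Fgf5, Fgf7, Fgf10, Fgf18, Fgf22, Fgfr1, Fgfr2 or Fgfr3, which gave 15 probes for 8 of the 16593 genes named on the array, among 25697 probes. Of these, 9 probes of 7 genes were detected above background (detection p under 0.01) on at least 6 arrays and were tested among 12834 probes. Total RNA of skin from control mice and from K14-cre; Gab1fl conditional mutants, all of a mixed C57/BL6;129Ola strain, had been hybridised to 28 Illumina BeadChip arrays, with 10 controls and 6 mutants aged 10 days (P10) and 6 controls and 6 mutants aged 15 days (P15). The K14 promoter drives Cre in basal keratinocytes of the epidermis and the follicle's outer layer. Skin cells that neither belong to these layers nor descend from them keep an intact allele. Which alleles the controls carried is not stated in the labels.

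FGFs are secreted proteins that bind receptor tyrosine kinases together with heparan sulphate, and the activated receptor recruits docking proteins, Gab1 among them, that pass the signal on to the ERK cascade. In mouse skin, Fgf5 made in the follicle is known for ending the growth phase of hair, and mice without it have long, angora-like coats. Fgf7 and Fgf10 come from the mesenchyme, including the dermal papilla at the base of the follicle, and act on the epithelial form of Fgfr2. Both ages lie within the first growth phase of mouse back hair.

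The promoters of the 4 ligands whose signals differed are shown because Fgf5 and Fgf22 were both lower in mutants and Fgf7 and Fgf10 were both lower in older control skin. The sequences come from RefSeq on mouse assembly GRCm38.p6 and run from 250 bases before to 50 bases after the annotated start, 5′ to 3′ on the strand of the gene. Capitals mark matches on either strand to 5 short motifs, which were TATAAA of the TATA box, the CCAAT box, GGGCGG of the Sp1 site, TGANTCA of the AP-1 site and CGGAAG of ETS sites. No match overlapped another. Fgf5 lies at chr5:98253934-98254233, Fgf22 at chr10:79754859-79755158, Fgf7 at chr2:126034408-126034707 and Fgf10 at chr13:118714449-118714748, all on the plus strand.
Fgf5: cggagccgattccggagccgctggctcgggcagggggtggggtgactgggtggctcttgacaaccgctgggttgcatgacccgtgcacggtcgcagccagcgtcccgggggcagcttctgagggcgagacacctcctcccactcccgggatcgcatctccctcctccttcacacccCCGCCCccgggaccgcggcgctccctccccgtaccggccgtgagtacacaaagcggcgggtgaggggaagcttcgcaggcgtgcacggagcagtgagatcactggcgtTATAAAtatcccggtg
Fgf22: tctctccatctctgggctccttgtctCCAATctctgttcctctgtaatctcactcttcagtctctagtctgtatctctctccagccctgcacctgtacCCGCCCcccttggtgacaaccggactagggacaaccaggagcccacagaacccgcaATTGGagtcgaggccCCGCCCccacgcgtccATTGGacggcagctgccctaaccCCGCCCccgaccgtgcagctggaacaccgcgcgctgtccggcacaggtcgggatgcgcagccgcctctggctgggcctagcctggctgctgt
Fgf7: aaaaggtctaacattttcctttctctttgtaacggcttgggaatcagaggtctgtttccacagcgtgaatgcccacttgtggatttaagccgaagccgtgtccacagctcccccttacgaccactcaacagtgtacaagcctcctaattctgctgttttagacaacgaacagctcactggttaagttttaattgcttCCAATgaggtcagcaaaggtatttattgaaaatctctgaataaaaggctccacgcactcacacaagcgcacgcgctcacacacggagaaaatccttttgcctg
Fgf10: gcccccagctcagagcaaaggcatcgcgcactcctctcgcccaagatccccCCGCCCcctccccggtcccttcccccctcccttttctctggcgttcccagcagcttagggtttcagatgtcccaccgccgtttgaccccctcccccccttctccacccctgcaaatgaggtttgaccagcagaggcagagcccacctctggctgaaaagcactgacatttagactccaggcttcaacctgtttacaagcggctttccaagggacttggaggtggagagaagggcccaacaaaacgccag
The Fgf5 window held 1 GGGCGG, on the opposite strand 74 bases before the start, and 1 TATAAA, whose first base was number 35 after it. In Fgf22 there were 3 matches each to GGGCGG and CCAAT, all before the start. Fgf7 held 1 CCAAT 53 bases before the start and Fgf10 held 1 GGGCGG 199 bases before it. TGANTCA, the letters bound by AP-1 factors, and CGGAAG, a core bound by ETS factors, were not in these 4 windows. Of 32841 mouse promoter windows of the same length, 35.7% held GGGCGG, 37.4% CCAAT, 13.6% TATAAA, 7.81% TGANTCA and 16.9% CGGAAG. Fgf5 and Fgf22 windows were 68.3% and 63.7% G or C, against a median of 52.7% over all windows, and those of Fgf7 and Fgf10 were 45.7% and 60.7%. A match describes the letters and says nothing on whether a factor binds them.

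Signals are given as normalized log2 values, on which a difference of 1 is a doubling, and each probe is compared only with itself. Array medians before normalization ranged from 53.2 to 172.3 and detected probes from 8836 to 13610, with both the highest median and the fewest detected probes on P15 mutant replicate 5. That array stood apart, and results that turn on it are given with and without it. Slides 1 and 2 held the P10 mutants and 6 P10 controls, and slides 3 and 4 held all P15 arrays and the remaining 4 P10 controls. The fit used throughout, unless another is named, held slide as a term, so mutants were compared with controls of their own slides. On each slide the mutants sat at positions A to C and controls of the same age at D to F, so genotype and position cannot be told apart. On slides 3 and 4 the P10 controls sat at G and H. Age and position therefore cannot be told apart in controls either, nor in the mutant age change taken through these arrays. Nothing in the labels states that replicates were separate animals, and the p-values may therefore cover technical spread alone. The keratins Krt14, Krt5, Krt10 and Krt1 and the collagens Col1a1 and Col3a1 were detected on all 28 arrays.

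Gab1 (ILMN_1222009), which checks the labels, ranged from 11.02 to 11.64 (median 11.25) in P10 controls on slides 1 and 2 and from 9.85 to 10.17 (median 9.97) in P10 mutants. P15 controls ranged from 11.29 to 11.85 (median 11.63) and P15 mutants from 9.91 to 10.54 (median 10.34). The groups did not overlap at either age. The signal of Gab1 in mutants was 2.47-fold lower at P10 (95% interval 2.11 to 2.90, limma adjusted p = 1.4e-08) and 2.51-fold lower at P15 (2.14 to 2.94, limma adjusted p = 2.97e-09).

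**Figure D1:**
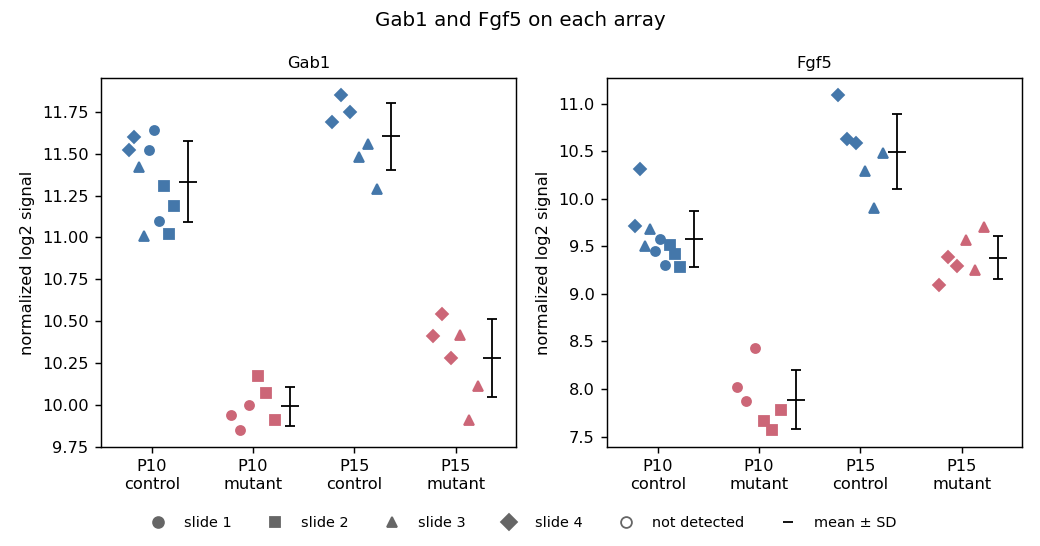
Normalized log2 signal of Gab1 and Fgf5 on each of the 28 arrays, by group, with the slide as the symbol and the group mean ± SD beside the points. Every mutant lies below every control of its own age for both genes. Fgf5 of P15 mutants (9.09 to 9.70) overlaps with the P10 controls of the same slides, 3 and 4 (9.50 to 10.31).

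The comparison of mutants with controls asked which ligands and receptors changed with the loss of Gab1. At P10, Fgf5 and both Fgf22 probes were lower and Fgfr2 was higher in mutant skin, and at P15 Fgf5, the brighter Fgf22 probe and Fgfr3 were lower while Fgfr2 and 1 Fgf10 probe were higher. At P10 1 of the 9 tested probes was called higher and 3 lower (limma adjusted p under 0.05), against 8.66% higher and 8.83% lower among all 12834 probes. At P15 2 were higher and 3 lower, against 8.94% and 10.6%. The median difference of the 9 probes was 0.04 at P10 and 0.17 at P15, and that of all tested probes was -0.02 and 0.02. In whole skin, fewer cells that make a transcript and less of it per cell cannot be told apart.

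**Figure D2:**
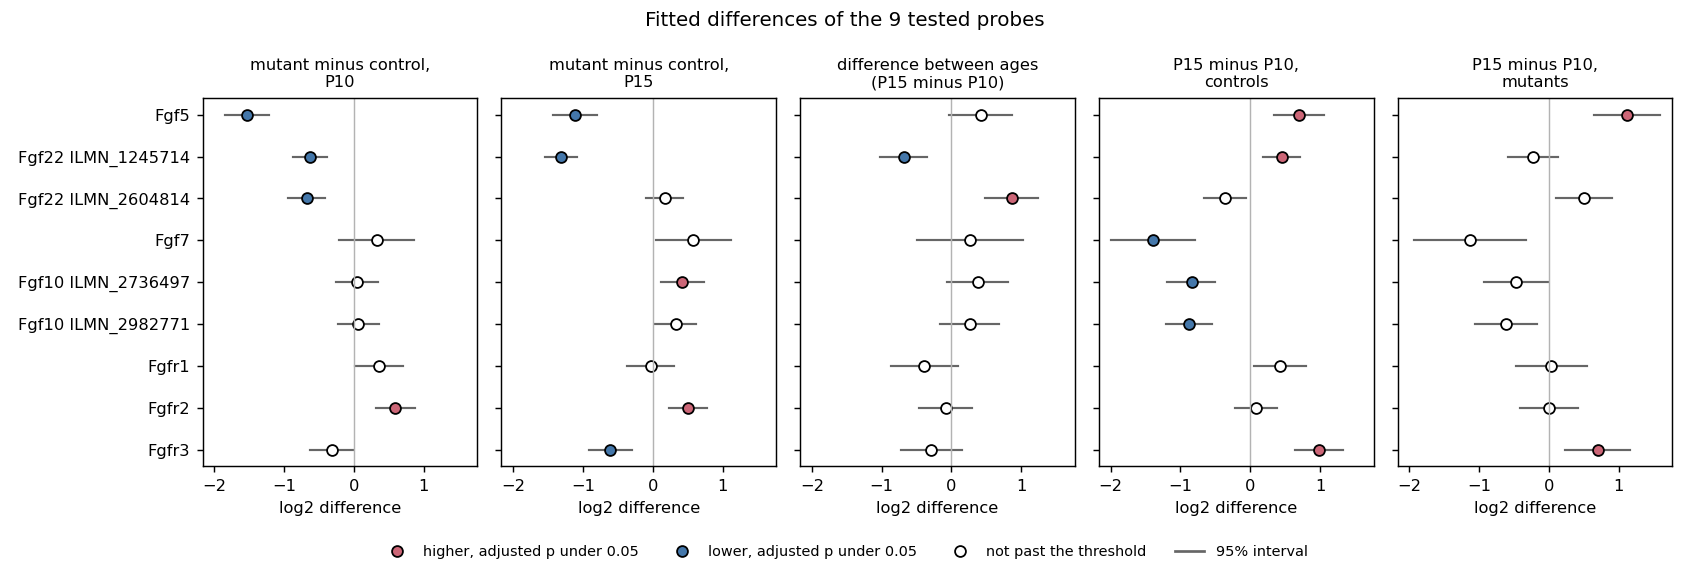
Fitted log2 differences (points) with 95% intervals (lines) of the 9 tested probes in 5 comparisons. Filled points passed an adjusted p of 0.05 over all tested probes. Fgf5 lies left of 0 in both mutant comparisons and right of 0 in both age comparisons, and the 2 Fgf22 probes part at P15 (-1.31 and 0.17).

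Fgf5 (ILMN_2642743), the ligand that ends hair growth, was detected on all 28 arrays. Its signal ran from 9.28 to 9.58 (median 9.43) in P10 controls on slides 1 and 2 and from 7.57 to 8.43 (median 7.82) in P10 mutants. P15 controls ran from 9.90 to 11.09 (median 10.53) and P15 mutants from 9.09 to 9.70 (median 9.34). Mutants lay below all controls of their age, with no overlap. Fgf5 was 2.90-fold lower at P10 (log2 difference -1.53, SE 0.16, limma adjusted p = 2.25e-07) and 2.17-fold lower at P15 (-1.12, SE 0.16, limma adjusted p = 1.04e-05). All 6 mutants of each age showed it. By p it ranked 16 at P10 and 156 at P15 among 12834 probes. The drop was 0.42 smaller at P15 on the log2 scale, a difference that did not pass the test (95% interval -0.03 to 0.87, limma adjusted p = 0.332).

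Within single slides the Fgf5 difference was -1.34 on slide 1, -1.73 on slide 2, -0.72 on slide 3 and -1.51 on slide 4. The slide 3 value, from 3 mutants and 3 controls, did not pass the test (limma adjusted p = 0.11), whereas the other slides did (0.000737, 0.00107 and 0.00714). Without P15 mutant replicate 5 the P15 difference was again -1.12 (limma adjusted p = 2.75e-05). Outer root sheath markers, which include genes of the layer in which mouse Fgf5 is made, had 3 of 8 lower and 0 higher at P10 and 2 lower and 1 higher at P15, with list medians of 0.01 and -0.01. Their mean log2 signal was 8.94 to 10.14 in P10 controls on slides 1 and 2 and 9.21 to 9.49 in P10 mutants, then 9.86 to 10.17 and 9.83 to 10.09 at P15, so the groups overlapped. Their part in the Fgf5 result was not tested.

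Fgf5 also rose with age. In P10 controls that shared slides with P15 arrays it ran from 9.50 to 10.31, and P15 controls overlapped with them. Fgf5 was 1.62-fold higher in P15 than in P10 controls (log2 difference 0.70, SE 0.17, limma adjusted p = 0.00527) and 2.17-fold higher in P15 than in P10 mutants (1.12, SE 0.23, limma adjusted p = 0.00222). P10 mutants thus had the lowest signal and P15 controls the highest. Between these, P15 mutants lay 0.42 below P10 controls on the log2 scale, and these neighbours did not differ past the threshold (95% interval -0.78 to -0.06, limma adjusted p = 0.0764). That last difference passed without P15 mutant replicate 4 or 6 (-0.48 and -0.51, limma adjusted p = 0.0487 and 0.0338), with median scaling in place of quantile normalization (-0.64, limma adjusted p = 0.00624) and with a skeletal muscle score as a covariate (-0.48, limma adjusted p = 0.0289). The rise in controls fell short with the muscle score (0.50, limma adjusted p = 0.0504) and on slides 3 or 4 alone (0.63 and 0.76, limma adjusted p = 0.182 and 0.08).

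Fgf22, a member of the Fgf7 subfamily found in the inner root sheath of mouse follicles, had 2 probes that were both detected on all 28 arrays and that disagreed. They correlated at r = 0.25 over the 28 arrays after adjustment for slide. Both were lower in P10 mutants, and at P15 only the brighter one was. Both probes carry the same transcript accession in the platform annotation, which gives no probe sequence. Inner root sheath markers had 2 of 6 tested lower and 0 higher in mutants at each age, with a list median of -0.24 at both. Their mean log2 signal was 13.66 to 13.86 in P10 controls on slides 1 and 2 and 13.39 to 13.52 in P10 mutants, then 13.71 to 13.88 in P15 controls and 13.37 to 13.68 in P15 mutants. The groups on shared slides did not overlap at either age, while P10 controls of slides 3 and 4 (13.45 to 13.51) lay within the range of the P10 mutants. The part of these markers in the Fgf22 result was not tested.

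The brighter probe (ILMN_1245714) ran from 9.33 to 10.16 (median 9.72) in P10 controls on slides 1 and 2 and from 8.73 to 9.59 (median 9.14) in P10 mutants. At P15 it ran from 9.72 to 10.24 (median 9.96) in controls and from 8.46 to 8.94 (median 8.63) in mutants. The P10 groups overlapped and the P15 groups did not. Its signal was 1.55-fold lower at P10 (log2 difference -0.63, SE 0.11, limma adjusted p = 4.61e-04) and 2.48-fold lower at P15 (-1.31, SE 0.11, limma adjusted p = 6.24e-09), and all 6 mutants of each age showed it. The drop was larger at P15 by 0.68 on the log2 scale (difference -0.68, SE 0.16, limma adjusted p = 0.0189). In controls it was 1.37-fold higher at P15 than at P10 (limma adjusted p = 0.0127), a log2 difference of 0.46. That call was lost without P10 control replicate 2 (0.34, limma adjusted p = 0.0748), with median scaling (0.20, limma adjusted p = 0.478), without the slide term (0.30, limma adjusted p = 0.101) and on slides 3 or 4 alone (0.55 and 0.36, limma adjusted p = 0.138 and 0.289). In mutants the age difference was -0.23 (95% interval -0.58 to 0.13, limma adjusted p = 0.41), and it passed without the slide term (-0.49, limma adjusted p = 0.0142).

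The second probe (ILMN_2604814) ran from 8.04 to 8.48 (median 8.33) in P10 controls on slides 1 and 2 and from 7.20 to 7.92 (median 7.63) in P10 mutants. At P15 it ran from 7.17 to 7.57 (median 7.31) in controls and from 6.96 to 7.95 (median 7.55) in mutants. The groups on shared slides were apart at P10 and overlapped at P15, and the P10 controls of slides 3 and 4 (7.55 to 7.86) lay within the range of the P10 mutants. It was 1.61-fold lower in P10 mutants (log2 difference -0.68, SE 0.13, limma adjusted p = 6.7e-04), while at P15 the difference was 0.17 (95% interval -0.09 to 0.44, limma adjusted p = 0.373). The effects at the 2 ages differed by 0.86 (SE 0.18, limma adjusted p = 0.00937), opposite in sign to the first probe. Its age difference was -0.36 in controls (95% interval -0.66 to -0.06, limma adjusted p = 0.0781) and 0.50 in mutants (0.10 to 0.90, limma adjusted p = 0.0961). The first passed without P15 control replicate 3 (-0.42, limma adjusted p = 0.0474), without the slide term (-0.72, limma adjusted p = 6.54e-04), with slide as a random block (-0.55, limma adjusted p = 0.00616) and with median scaling (-0.63, limma adjusted p = 0.00992). The second passed without P15 mutant replicate 2 (0.60, limma adjusted p = 0.0299) and was -0.10 without the slide term (limma adjusted p = 0.658).

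**Figure D3:**
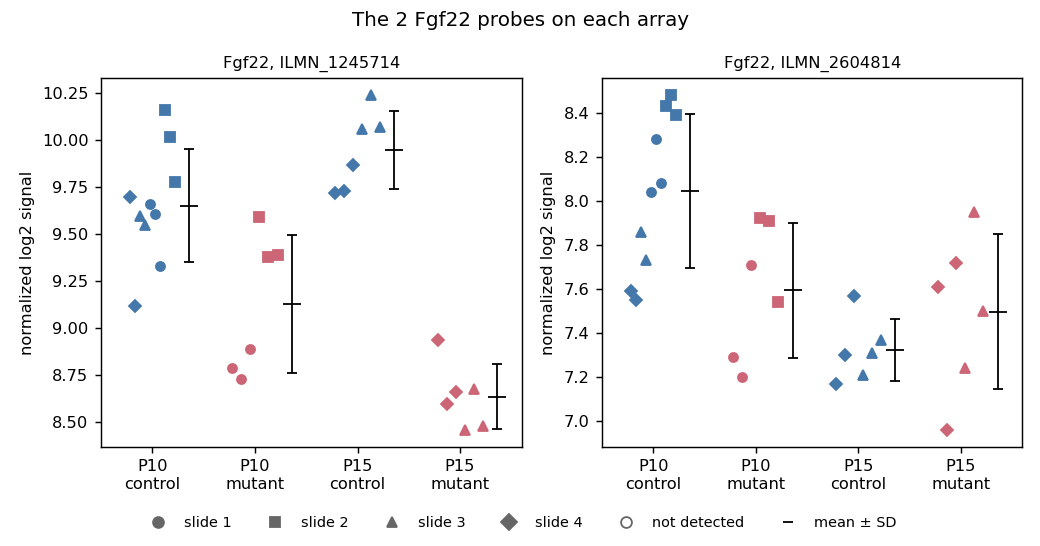
Normalized log2 signal of the 2 Fgf22 probes on each array, by group, with the slide as the symbol and the group mean ± SD beside the points. The left probe falls further at P15 (controls 9.72 to 10.24, mutants 8.46 to 8.94), where the right probe overlaps between the groups (7.17 to 7.57 and 6.96 to 7.95).

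The test of the difference between ages called 1 of the 9 probes higher and 1 lower, both of them Fgf22, against 1.61% higher and 1.66% lower among all probes. Neither call held without the slide term (limma adjusted p = 0.0533 for ILMN_1245714 and 0.199 for ILMN_2604814). With median scaling the brighter probe fell short (-0.65, limma adjusted p = 0.179).

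Fgf7 (ILMN_2833706), or keratinocyte growth factor, was detected on 10 of 10 P10 controls and 6 of 6 P10 mutants but on 1 of 6 arrays in each P15 group. On slides 1 and 2 it ran from 6.71 to 7.87 (median 7.46) in P10 controls and from 7.50 to 7.96 (median 7.69) in mutants. P15 controls ran from 4.57 to 6.13 (median 5.18) and P15 mutants from 4.90 to 7.02 (median 5.72). Mutants and controls overlapped at both ages, and neither difference passed the test (0.33, 95% interval -0.21 to 0.86, limma adjusted p = 0.423 at P10, and 0.58, 0.05 to 1.12, limma adjusted p = 0.117 at P15). With each undetected array set to its lowest detected signal or to the probe's own value, whichever was higher, the P15 difference was 0. As 1 of 6 arrays in each P15 group was detected, that value rests largely on the bound and cannot judge the fitted difference. The P15 difference as fitted passed without P15 control replicate 6 or P15 mutant replicate 1 (0.76 and 0.75, limma adjusted p = 0.0423 and 0.0436), and without P15 mutant replicate 5, the only mutant of that age with a detected signal, it was 0.35 (limma adjusted p = 0.324).

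In controls Fgf7 fell with age. The P10 controls on slides 3 and 4 ran from 6.16 to 7.10, above all P15 controls. The fitted drop in controls was 2.62-fold (log2 difference -1.39, SE 0.29, limma adjusted p = 0.0013), and 1.25-fold with undetected arrays at that bound. It did not pass on slide 3 alone (-0.90, limma adjusted p = 0.379) and passed on slide 4 alone (-1.88, limma adjusted p = 0.0219). In mutants the fitted difference was -1.13 (SE 0.39, limma adjusted p = 0.0592), 2.19-fold, or 1.56-fold with undetected arrays at their bound, and did not pass. It passed without P15 mutant replicate 5 (-1.38, limma adjusted p = 0.00802), without the slide term (-1.92, limma adjusted p = 1.22e-05), with slide as a random block (-1.54, limma adjusted p = 0.0016), with median scaling (-1.10, limma adjusted p = 0.0207) and with array quality weights (-1.15, limma adjusted p = 0.0123). With a fibroblast score as a covariate it was 0.18 (SE 0.96, limma adjusted p = 0.937).

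Fgf10, the other mesenchymal ligand, had 3 probes. One of them (ILMN_1213777) was detected on no array. The other 2 moved together (r = 0.94 over 28 arrays). ILMN_2982771 ran from 7.41 to 8.22 (median 7.81) in P10 controls on slides 1 and 2, from 7.79 to 7.98 (median 7.86) in P10 mutants, from 6.91 to 7.59 (median 7.22) in P15 controls and from 6.88 to 8.03 (median 7.57) in P15 mutants. ILMN_2736497 ran from 7.13 to 8.15 (median 7.64), from 7.58 to 7.84 (median 7.66), from 6.28 to 7.04 (median 6.74) and from 6.60 to 7.49 (median 7.15) in the same groups. Mutants and controls overlapped at both ages for both probes.

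At P10 the differences of Fgf10 between mutants and controls were 0.06 (ILMN_2982771, 95% interval -0.23 to 0.36, limma adjusted p = 0.801) and 0.04 (ILMN_2736497, -0.26 to 0.35, limma adjusted p = 0.875). At P15 ILMN_2736497 was 1.34-fold higher in mutants (0.42, SE 0.15, limma adjusted p = 0.0463), with 5 of 6 mutants above their slide's control mean. That call ended when any 1 of 8 arrays was left out (P15 control replicates 2, 3, 5 and 6 and P15 mutant replicates 2, 3, 4 and 6, limma adjusted p from 0.0537 to 0.124). It also ended without the slide term, with median scaling, without background correction, without the filter on dim probes and with the muscle score (limma adjusted p from 0.0535 to 0.0798), and on slides 3 or 4 alone (limma adjusted p = 0.221 and 0.492). ILMN_2982771 differed by 0.33 and did not pass (limma adjusted p = 0.111), and it passed without P15 mutant replicate 5 (0.47, limma adjusted p = 0.00687) or P15 control replicate 1 (0.41, limma adjusted p = 0.0493), with median scaling (0.43, limma adjusted p = 0.0414) and with array quality weights (0.45, limma adjusted p = 0.00982). In controls Fgf10 fell with age, by 1.84-fold (ILMN_2982771, -0.88, SE 0.16, limma adjusted p = 3.7e-04) and 1.80-fold (ILMN_2736497, -0.84, SE 0.17, limma adjusted p = 7.34e-04), and on shared slides no P15 control reached a P10 control. On slide 3 alone neither fall passed (-0.91 and -0.75, limma adjusted p = 0.162 and 0.148). On slide 4 alone ILMN_2982771 passed (-0.84, limma adjusted p = 0.0448) and ILMN_2736497 did not (-0.94, limma adjusted p = 0.0608). In mutants the differences were -0.62 (limma adjusted p = 0.0632) and -0.47 (limma adjusted p = 0.172). The first passed with median scaling (-0.89, limma adjusted p = 0.00642), with array quality weights (-0.47, limma adjusted p = 0.049) and without P15 mutant replicate 4 (-0.72, limma adjusted p = 0.0218), and the second without the slide term (-0.58, limma adjusted p = 0.00287) and with slide as a random block (-0.53, limma adjusted p = 0.035).

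Fgf18 (ILMN_1219545), a ligand known for holding mouse follicles in their resting phase, was detected on 0 of 28 arrays. Its signals, from 4.50 to 5.42, were not well above background in any group, and it was not tested.

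Among the receptors, Fgfr2, whose epithelial form binds Fgf7 and Fgf10, was higher in mutants at both ages by its 1 tested probe (ILMN_2609887). It ran from 7.05 to 7.62 (median 7.42) in P10 controls on slides 1 and 2 and from 7.68 to 8.29 (median 7.95) in P10 mutants. P15 controls ran from 7.76 to 8.13 (median 7.89) and P15 mutants from 8.04 to 8.73 (median 8.40). The groups were apart on slides 1 and 2 and overlapped at P15. The P10 controls of slides 3 and 4 ran from 7.61 to 8.08, within reach of the P10 mutants. Fgfr2 was 1.51-fold higher at P10 (log2 difference 0.59, SE 0.13, limma adjusted p = 0.00274) and 1.42-fold higher at P15 (0.51, SE 0.13, limma adjusted p = 0.00738), seen in all 6 mutants of each age, and the effects differed by -0.08 (95% interval -0.47 to 0.30, limma adjusted p = 0.866).

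Single slides gave Fgfr2 differences of 0.92 on slide 1 (limma adjusted p = 0.00265), 0.27 on slide 2 (0.18), 0.69 on slide 3 (0.0842) and 0.33 on slide 4 (0.282). All 4 were positive, and slide 1 alone passed. Age differences were 0.08 in controls (95% interval -0.22 to 0.39, limma adjusted p = 0.737) and 0.00 in mutants (-0.41 to 0.41, limma adjusted p = 0.999). Without the slide term they were 0.36 and 0.45 and both passed (limma adjusted p = 0.0379 and 0.017). The other 2 Fgfr2 probes, ILMN_1229167 and ILMN_2646078, were each detected on 2 arrays and were not tested.

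Fgfr3 (ILMN_1257208), a receptor also found in epidermis and follicle keratinocytes, ran from 7.43 to 8.34 (median 7.86) in P10 controls on slides 1 and 2 and from 7.04 to 7.74 (median 7.64) in P10 mutants. At P15 it ran from 8.71 to 9.07 (median 8.93) in controls and from 8.04 to 8.60 (median 8.32) in mutants. The P10 groups overlapped and the P15 groups did not. At P10 the difference was -0.32 and did not pass (95% interval -0.63 to -0.02, limma adjusted p = 0.14), except with array quality weights (-0.42, limma adjusted p = 0.00326). At P15 Fgfr3 was 1.53-fold lower in mutants (-0.61, SE 0.15, limma adjusted p = 0.00482), in 6 of 6. The 2 effects did not differ past the threshold (-0.29, 95% interval -0.72 to 0.15, limma adjusted p = 0.528). The P15 call ended with median scaling (-0.48, limma adjusted p = 0.134) and on slides 3 or 4 alone (-0.73 and -0.49, limma adjusted p = 0.075 and 0.22).

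Fgfr3 rose with age by 1.98-fold in controls (0.98, SE 0.17, limma adjusted p = 1.64e-04), and on shared slides, where P10 controls ran from 7.39 to 8.69, the groups did not overlap. In controls Fgfr3 rose by 1.37 on slide 3 alone (limma adjusted p = 0.015), while its rise of 0.60 on slide 4 alone did not pass (limma adjusted p = 0.153). In mutants it rose by 1.62-fold (0.70, SE 0.22, limma adjusted p = 0.0437), and this call ended when any 1 of 9 arrays was left out (P10 mutant replicates 1, 2, 3, 4 and 6 and P15 mutant replicates 1, 3, 5 and 6, limma adjusted p from 0.0506 to 0.079). It also ended with median scaling (0.44, limma adjusted p = 0.392), with the muscle score (0.64, limma adjusted p = 0.136) and without the filter on dim probes (0.70, limma adjusted p = 0.0701). The other Fgfr3 probe (ILMN_2590766) was detected on no array.

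Fgfr1, the receptor that mouse Fgf5 is thought to act on in the dermal papilla, was dim. Its tested probe (ILMN_2727068) was detected on 9 of 28 arrays and its other probe (ILMN_2675581) on none. The tested probe ran from 5.00 to 5.68 (median 5.33) in P10 controls on slides 1 and 2, from 5.39 to 5.88 (median 5.67) in P10 mutants, from 5.74 to 6.50 (median 6.06) in P15 controls and from 5.72 to 6.64 (median 5.85) in P15 mutants. All these groups overlapped with their same-age counterpart. Neither difference between mutants and controls passed the test (P10 mutant minus control 0.36, 95% interval 0.02 to 0.70, limma adjusted p = 0.138, and P15 -0.03, -0.37 to 0.30, limma adjusted p = 0.915). The P10 difference passed with median scaling (0.47, limma adjusted p = 0.0284) and with array quality weights (0.34, limma adjusted p = 0.0265). However, the probe was detected on 0 of 6 P10 controls on slides 1 and 2 and on 4 of 6 P10 mutants. With undetected arrays at the bound used for Fgf7, the difference was 0.07 at P10 and 0.13 at P15. Most of the arrays compared were undetected at each age, so these values also rest largely on the bound. From P10 to P15 Fgfr1 differed by 0.42 in controls (limma adjusted p = 0.102), which passed without the slide term (0.63, limma adjusted p = 0.00187) and with slide as a random block (0.53, limma adjusted p = 0.0146). With undetected arrays at their bound this age difference was 0.26. The 95% intervals above give the range of Fgfr1 differences between mutants and controls that the fit of these dim signals allows.

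**Figure D4:**
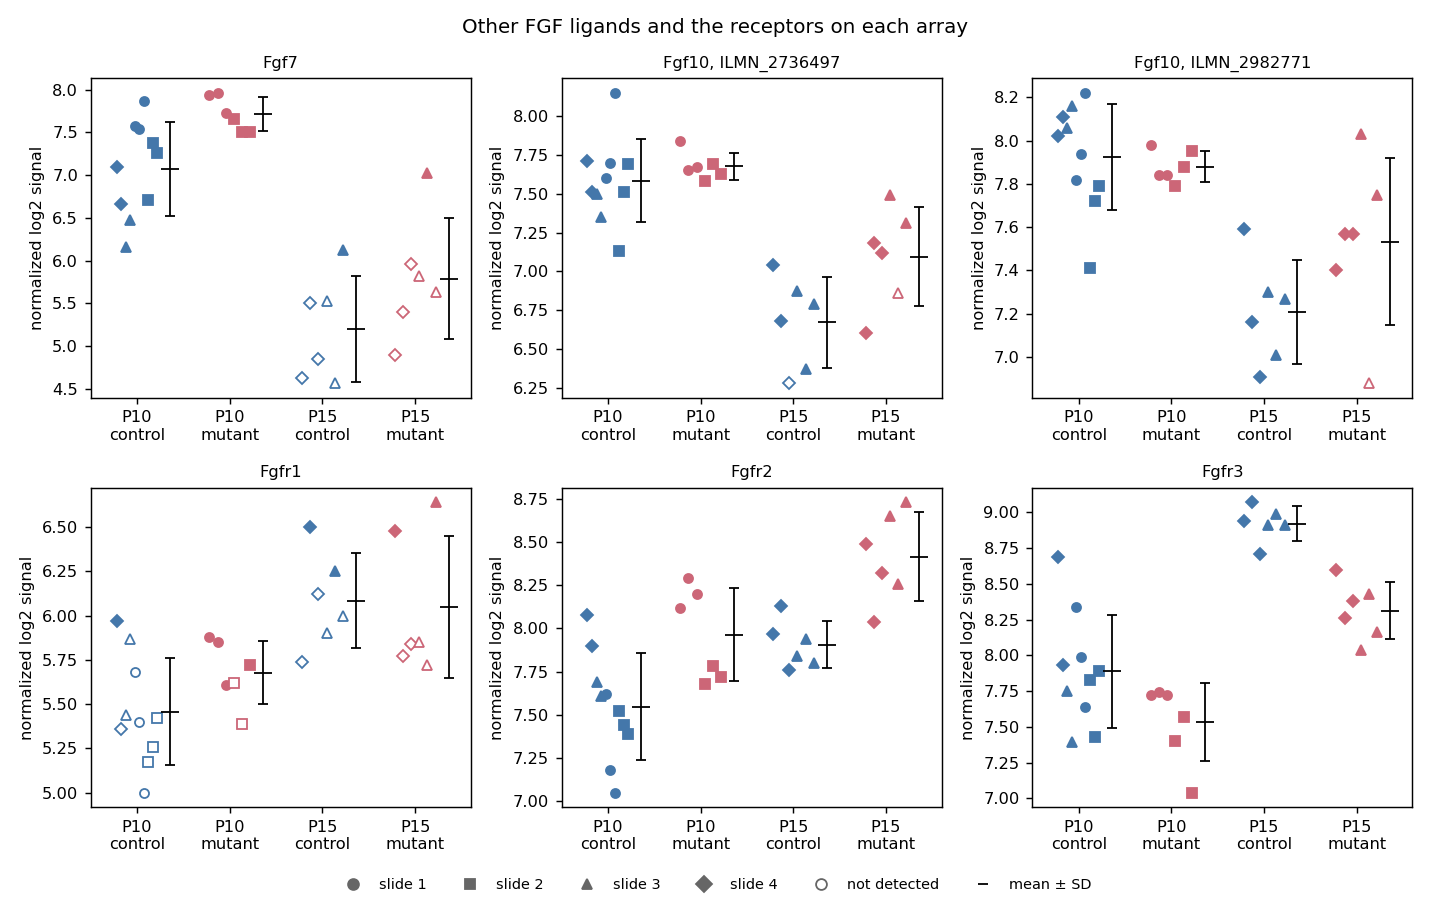
Normalized log2 signal of the other tested probes on each array, by group, with open symbols where the probe was not detected, the slide as the symbol and the group mean ± SD beside the points. Fgf7 and both Fgf10 probes are lower at P15 than at P10 in controls, Fgfr2 is higher in mutants at both ages, and Fgfr3 is highest in P15 controls (8.71 to 9.07).

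Over both ages, the question was how these genes move as follicles grow older and whether the same held in mutants. In controls 3 of the 9 probes rose from P10 to P15 (Fgf5, the brighter Fgf22 probe and Fgfr3) and 3 fell (Fgf7 and both Fgf10 probes), against 10.5% higher and 10.7% lower of all probes. In mutants 2 rose (Fgf5 and Fgfr3) and 0 fell, against 5.45% and 6.03%. There, 6 of the 9 probes had an unadjusted p under 0.05. The largest of these (limma unadjusted p = 0.045, Fgf10 ILMN_2736497) ranked 3354 by p among all 12834 probes, so many other probes passed that cut too. Set against P10 controls, P15 mutants had 1 probe higher (Fgfr2) and 3 lower (Fgf7, Fgf10 ILMN_2982771 and Fgf22 ILMN_1245714), against 11.9% and 13.9% of all probes. The brighter Fgf22 probe was 1.81-fold lower there (-0.86, SE 0.13, limma adjusted p = 2.92e-05), whereas the Fgf5 difference of -0.42 did not pass. The Fgf7 call (-0.81, limma adjusted p = 0.0422) ended when any 1 of 7 arrays was left out (P10 control replicates 1, 2 and 4 and P15 mutant replicates 1, 2, 4 and 6, limma adjusted p from 0.0504 to 0.186), and with undetected arrays at their bound the fold was 1.25. It also ended without background correction, without the filter on dim probes, with the fibroblast score and on slide 3 alone (limma adjusted p from 0.0625 to 0.87). The Fgfr2 call ended with median scaling (0.44, limma adjusted p = 0.0906) and on slide 4 alone (0.29, limma adjusted p = 0.363). That of Fgf10 ILMN_2982771 ended with the fibroblast score (-0.85, limma adjusted p = 0.05) and on slides 3 or 4 alone (-0.55 on both, limma adjusted p = 0.296 and 0.143), and that of Fgf22 on slide 4 alone (-0.68, limma adjusted p = 0.0845). These comparisons share the P10 controls of slides 3 and 4. Mutants of the 2 ages lay on different slides, so their age change was taken through those P10 controls.

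Markers of skin cell types also differed in these comparisons. Fibroblast markers (Col1a1, Col1a2, Col3a1, Dcn, Lum, Pdgfra, Dpt and Sparc) were higher in P10 mutants for 7 of 8, with a list median of 0.78. Their mean log2 signal was 10.84 to 11.16 in P10 controls and 11.75 to 12.17 in P10 mutants, with no overlap. In a fit with the score of this list as a covariate, chosen after seeing the data, Fgf5 was -1.71 at P10 (SE 0.31, limma adjusted p = 0.00869). The other 3 calls of P10 ended there, with -0.33 and -0.68 for the Fgf22 probes (limma adjusted p = 0.6 and 0.293) and 0.16 for Fgfr2 (limma adjusted p = 0.849). The score was 0.93 to 1.35 in P10 mutants and 0.02 to 0.34 in P10 controls, so score and genotype cannot be told apart at P10. Over all probes 45 were called at P10 in that fit, against 2244 without the score. The SE of Fgf22 ILMN_2604814 was 0.27 with the score and 0.13 without. At P15 the fibroblast markers overlapped between mutants (9.69 to 10.59) and controls (9.88 to 10.34), and all 5 member calls held in that fit.

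Between P10 and P15 controls, 5 of 8 fibroblast markers fell (list median -0.83). Their score was 0.02 to 0.34 in P10 and -0.94 to -0.47 in P15 controls. In mutants it was 0.93 to 1.35 at P10 and -1.12 to -0.22 at P15. Score and age thus cannot be told apart within either genotype. With the fibroblast score as a covariate the fall of Fgf10 ILMN_2982771 (-1.18, limma adjusted p = 0.0185) and the rise of Fgfr3 (1.14, limma adjusted p = 0.0298) held, and the other 4 changes did not pass. Of these, Fgf5 was 0.87 (0.70 without the score, limma adjusted p = 0.0986 with it) and Fgf10 ILMN_2736497 was -0.87 (-0.84 without, limma adjusted p = 0.0893). Fgf7 was -0.73 (-1.39 without, limma adjusted p = 0.409) and the brighter Fgf22 probe 0.15 (0.46 without, limma adjusted p = 0.717). No member was called in the mutant age change in that fit, with 1.46 for Fgf5 (limma adjusted p = 0.216) and 1.01 for Fgfr3 (limma adjusted p = 0.362). Dermal papilla markers, from the cells known to make Fgf7 and Fgf10, were largely out of reach, since 4 of 10 were detected on no array. Of the 5 tested, 0 were called at P10, 2 were higher and 1 lower in P15 mutants, and 2 fell with age in controls. Their mean log2 signal was 7.17 to 7.39 in P10 controls on slides 3 and 4 and 6.98 to 7.21 in P15 controls. Their part in the Fgf7 and Fgf10 results was not tested.

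Skeletal muscle markers were higher in P10 mutants for 6 of 10 (list median 1.64), and their mean log2 signal was 10.54 to 11.55 in mutants and 8.60 to 11.74 in P10 controls on slides 1 and 2, the top value being P10 control replicate 7. All 4 member calls of P10 held with the muscle score as a covariate. That score was 1.46 to 2.48 in P10 mutants, 2.66 in P10 control replicate 7 and -0.54 to 0.70 in the other P10 controls. Among P10 arrays, score and genotype were thus tied but for that replicate, and this fit cannot decide the part of muscle. Melanocyte markers were higher in P15 mutants for 6 of 7 (list median 1.03), with a mean log2 signal of 7.74 to 8.88 in P15 controls and 8.91 to 9.65 in P15 mutants and no overlap. Between P10 and P15 controls 7 of 7 fell (list median -1.36). Bulge markers were lower in P15 mutants for 3 of 6 (list median -0.49), and their mean log2 signal ran from 9.23 to 9.85 in P15 controls and from 8.83 to 9.27 in P15 mutants, which overlapped. Adipocyte markers were higher in P10 mutants for 5 of 7 and lower in P15 mutants for 2 of 7, and 4 of 7 fell with age in controls and 7 of 7 in mutants. Macrophage markers were higher for 3 of 3 in P10 and 2 of 3 in P15 mutants, and T cell markers were lower for 3 of 3 at each age. Apart from the fits with the muscle score, the part of these lists in the member results was not tested.

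Other genes of the pathway were counted from lists, with the brightest tested probe for each gene and up to 3 called members of smallest p named in each comparison between the groups. Among all tested probes, 8.66% were higher and 8.83% lower in P10 mutants, and 8.94% and 10.6% in P15 mutants. With age 10.5% rose and 10.7% fell in controls, and 5.45% and 6.03% in mutants. Counts of these lists and of the cell type lists above were not tested against those shares. Of 17 other FGF ligands only 3 were tested. Fgf1, a ligand that binds all FGF receptors, was 1.40-fold lower in P10 mutants (limma adjusted p = 0.0447) and 2.71-fold lower in those of P15 (limma adjusted p = 9.65e-07), and the effects differed (-0.95, limma adjusted p = 0.0264), as for the brighter Fgf22 probe. It was 1.84-fold higher in P15 than in P10 controls (limma adjusted p = 0.0016). Fgf13, an FGF homologue that stays inside the cell, fell with age by 1.86-fold in controls (limma adjusted p = 0.00374) and 2.38-fold in mutants (limma adjusted p = 0.00503). Both were lower in P15 mutants than in P10 controls, by 1.47-fold and 2.04-fold (limma adjusted p = 0.0302 and 0.00102).

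Of 4 tested receptors and binding proteins, 2 were higher at P10 and 1 at P15. Fgfbp3, which carries FGFs released from the matrix, was higher by 1.47-fold and 1.52-fold (limma adjusted p = 7.13e-04 and 1.89e-04). Klb, a co-receptor of hormone-like FGFs, was detected on 8 arrays and was 1.5-fold higher at P10 (limma adjusted p = 0.0379). It fell with age by 1.60-fold in controls and 2.46-fold in mutants (limma adjusted p = 0.0278 and 0.00446). Against P10 controls, P15 mutants had 1.34-fold higher Fgfbp3 and 1.64-fold lower Klb (limma adjusted p = 0.0105 and 0.0183). Of 14 heparan sulphate genes, 2 were higher and 1 lower at P10 and 4 higher and 1 lower at P15. Sdc1, the main syndecan of keratinocytes, was 1.42-fold and 1.31-fold lower (limma adjusted p = 0.00237 and 0.0139), while the glypican Gpc3 was 1.74-fold and 1.42-fold higher (limma adjusted p = 1.33e-05 and 0.00136) and the basement membrane proteoglycan Hspg2 was 1.5-fold and 1.36-fold higher (limma adjusted p = 0.00325 and 0.0189). With age 3 of the 14 rose and 3 fell in controls, and 2 rose and 2 fell in mutants. Gpc3 fell by 1.94-fold and 2.38-fold (limma adjusted p = 3.84e-06 and 9.31e-06) and Ext1, an enzyme that builds the heparan sulphate chain, by 1.5-fold and 1.63-fold (limma adjusted p = 0.00122 and 0.00536). The syndecan Sdc3 rose by 1.76-fold in controls (limma adjusted p = 0.00243) and the sulphotransferase Hs6st1 by 1.81-fold in mutants (limma adjusted p = 0.00105). Against P10 controls, P15 mutants had higher Hs6st1 (1.69-fold, limma adjusted p = 7.9e-05) and lower Ext1 and Hs3st1, another sulphotransferase (1.46-fold and 1.47-fold, limma adjusted p = 0.00188 and 0.00415).

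Downstream of the receptors, 9 genes of the adaptor and ERK cascade list were tested, with 1 higher and 2 lower at P10 and 0 higher and 2 lower at P15. The higher one was the ERK kinase Map2k1, detected on 8 arrays (2.07-fold, limma adjusted p = 0.0189), and the lower ones were Gab1 and its binding partner Ptpn11, a phosphatase, at 1.22-fold and 1.21-fold (limma adjusted p = 0.0303 and 0.0304). Gab1 was also 2.16-fold lower in P15 mutants than in P10 controls (limma adjusted p = 4.63e-07). Of 9 tested feedback inhibitors and targets of FGF signalling, 3 were lower and 0 higher at each age, with list medians of -0.36 and -0.12. Dusp6, a phosphatase that ERK signalling induces and that switches ERK off, was 1.73-fold and 1.84-fold lower (limma adjusted p = 4.91e-05 and 6.54e-06), and Flrt2, a transmembrane protein that can bind FGF receptors, 1.84-fold and 2.01-fold lower (limma adjusted p = 0.00203 and 4.21e-04). The third was Flrt3 at P10 (1.28-fold, limma adjusted p = 0.0178) and the ERK phosphatase Dusp4 at P15 (1.99-fold, limma adjusted p = 8.1e-05). None of the 9 was called in the difference between ages. Etv4, a transcription factor that FGF signalling induces, was the 1 gene of the list that changed with age, and it was lower at P15 by 1.63-fold in controls and 1.59-fold in mutants (limma adjusted p = 9.3e-04 and 0.0237). Against P10 controls, 4 of the 9 were lower in P15 mutants, with Dusp4, Dusp6 and Etv4 of smallest p (2.19-fold, 1.88-fold and 1.66-fold, limma adjusted p = 6.17e-05, 1.86e-05 and 5.7e-04).

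Of 14 tested hair cycle regulators, 2 were higher and 2 lower at P10 and 2 higher and 1 lower at P15. The neurotrophin receptor Ngfr was 1.72-fold and 1.71-fold lower (limma adjusted p = 0.0014 and 0.00111), and the corepressor Hr, which is needed for hair regrowth, was 1.44-fold lower at P10 (limma adjusted p = 0.0138). Igf1, a growth factor of the dermis and dermal papilla, was 1.54-fold higher at P10 (limma adjusted p = 0.0204). Wnt10b, a ligand of growing follicles, was 2.30-fold higher in P15 mutants (limma adjusted p = 4.45e-04) and Shh, which the growing follicle needs, 1.51-fold higher (limma adjusted p = 0.0137). With age Hr rose by 2.10-fold in controls and 2.52-fold in mutants (limma adjusted p = 4.89e-05 and 1.89e-04). The growth factor Tgfb3 and Shh fell in controls by 1.96-fold and 1.65-fold (limma adjusted p = 8.34e-04 and 0.00713), and Igf1 fell in mutants by 2.35-fold (limma adjusted p = 0.00388). Against P10 controls, P15 mutants had higher Hr and Wnt10b (1.75-fold and 2.16-fold, limma adjusted p = 8.42e-04 and 0.0024) and lower Ngfr (1.69-fold, limma adjusted p = 0.00326).

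The probes whose pattern was most like that of each member were found by Pearson correlation of slide-adjusted log2 signals over the 28 arrays. The points share slides and group differences, so r is a description. Nearest to Fgf5 were Kcne1, a potassium channel subunit (r = 0.946), Padi1, which citrullinates proteins of keratinocytes (0.935), the glutamate transporter Slc1a1 (0.934), Tmem229b (0.93) and the hair keratin-associated gene Krtap4-7 (0.923). For the brighter Fgf22 probe they were the MAP kinase phosphatase Dusp2 (0.957), Smox (0.945) and Rnd2 (0.942). The second Fgf22 probe had weaker neighbours, Nelfe (0.811), Pla2g4b (0.766) and Mboat1 (0.757).

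For Fgfr3 the nearest were the hair genes Krt39 (0.93) and Krtap1-4 (0.914) and then Rnf222 (0.905), and for Fgfr2 they were Kyat1 (0.86), Slmap (0.845) and Fos (0.844). Fgf10 was closest to Serpinb1a (0.913), Clspn (0.895) and Prdx4 (0.887), and Fgf7 to Dbi (0.897), Dpysl2 (0.876) and Cryz (0.874). The dim Fgfr1 probe reached only 0.719 (Mbtps1), 0.706 (Pou6f1) and 0.682 (Zfp598). Among the members, Fgf5 correlated at 0.66 with the brighter Fgf22 probe and at 0.65 with Fgfr3, Fgf7 at 0.78 and 0.68 with the Fgf10 probes, and Fgfr3 at -0.83 and -0.76 with the Fgf10 probes.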

How the data were processed

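Per the labels' protocols, total RNA was amplified, labelled with biotin and hybridised to BeadChip arrays. The submitters' processing notes name GenomeStudio, without a version. Per the file headers, the deposited raw table pairs each probe's signal with its detection p-value. The signals are linear intensity values, deposited without normalization as judged from unequal array medians. The deposited value table of the authors gives processed intensity for the same arrays, and 25.6% of its values were below 0. It served as an alternative, after values under 16 were set to 16 and put on a log2 scale.

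Raw signals were background-corrected by normexp with limma's neqc at an offset of 16, using the detection p-values, then quantile-normalized and log2 transformed. This log2 step was not done by the authors. Probes were tested by limma 3.58.1 (lmFit, eBayes) in R 4.3.3 with group and slide terms over 28 arrays (21 residual degrees of freedom), two-sided, with Benjamini-Hochberg adjustment over 12834 probes. Probes, not genes, were the unit. Symbols came from the platform annotation and were checked by gene ID in a RefSeq table. Promoters matched 7 of 8 members. The number of arrays limits the precision. Fits were tested on simulated log2 signals with slide shifts, independent normal noise and changes set in P10 mutants only. The simulation held no position effect and no array that stood apart, so it cannot show that the p-values hold for these arrays. Members, lists and tests were chosen with earlier results of these data known, and P15 mutants against P10 controls and the fibroblast covariate were added after seeing the data. All probes of the members and Gab1 were named, from each pathway list up to 3 called probes of smallest p per comparison, and by likeness 5 probes for Fgf5 and 3 for each other member. Replicate numbers were not taken as pairs: residuals of same-numbered mutants and controls correlated between -0.20 and 0.41. Alternatives covered slide, normalization, background, processed values, filter, probe choice, array weights, replicate block, muscle and fibroblast scores, single slides and each array left out.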

Additional observations from a re-analysis of the deposited data

Results flagged for a closer look

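Fgf5 in P10 control replicate 2, on slide 4, was 10.31, apart from the other 9 P10 controls, which ran from 9.28 to 9.71. It was the 1 such array in 36 checks (9 probes in 4 groups), where chance alone gives about 1 in 20. The rise of Fgf5 with age in controls uses this array and was 0.84 without it (SE 0.18, limma adjusted p = 0.00222).

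The mutant effect on both Fgf22 probes differed between the ages, in opposite directions. The log2 effect at P15 minus that at P10 was -0.68 for ILMN_1245714 (limma adjusted p = 0.0189) and 0.86 for ILMN_2604814 (limma adjusted p = 0.00937). The 2 probes carry 1 transcript accession.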

How the results depend on the processing

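Over 1527 alternative values of the 9 probes and 6 comparisons, 1353 kept their direction and side of the threshold, 86 calls were lost, 43 were gained, 44 uncalled values changed sign and 1 reversed, Fgfr2 in the mutant age change without the slide term (0.45 against 0.00). The P10 count of called members, 4, stayed at 4 with each array left out, was 6 with array weights (Fgfr1 and Fgfr3 gained) and 5 with median scaling (Fgfr1 gained), 2 on slide 2 alone, 1 with the fibroblast score (chosen after seeing the data) and 0 with a replicate block. The P15 count, 5, ran from 4 to 6 with each array left out and was 1 on slide 3 alone and 2 on slide 4 alone. The count of 2 for the difference between ages stayed at 2 with each array left out, was 1 with median scaling or 1 probe per gene, and 0 without the slide term, with the replicate block or with the fibroblast score. The control age count, 6, ran from 5 to 7 with each array left out, and was 1 on slide 3 alone and 2 on slide 4 alone or with the fibroblast score. The mutant age count, 2, ran from 1 to 3 with each array left out and was 6 without the slide term, 4 with slide as a random block or array weights, 1 without the filter or with the muscle score and 0 with the fibroblast score. For P15 mutants against P10 controls the count, 4, ran from 3 to 5 with each array left out and was 8 without the slide term, 7 with slide as a random block, 2 with the fibroblast score or on slide 3 alone and 1 on slide 4 alone. Where single slides or the replicate block ended calls, fewer arrays or degrees of freedom were left by construction (7 residual with the block), and otherwise the cause was not tested. Under the replicate block Fgf5 was -0.88 at P10 (SE 0.68, limma adjusted p = 0.799) and -1.12 at P15 (limma adjusted p = 0.00188), the P15 call of Fgf10 ILMN_2736497 ended (limma adjusted p = 0.0773), and the age changes could not be estimated. Same-numbered P10 arrays lie on different slides in each pair, so the block left little information there. Calls over all probes moved by over 1.5 times from 2244 at P10 (6002 with array weights, 5345 on slide 1 alone, 1087 on slide 2 alone, 1386 without P10 control replicate 6, 45 with the fibroblast score, 0 with the block), from 2506 at P15 (1651 with median scaling, 295 and 668 on slides 3 and 4 alone), from 419 for the difference (1834 with array weights, 241 with median scaling, 227 without the slide term, 250 to 675 with each array left out, 7 with the fibroblast score, 0 with the block), from 2722 for control age (5106 without the slide term, 879 with the fibroblast score, 318 and 805 on slides 3 and 4 alone) from 1473 for mutant age (5695 without the slide term, 3128 with array weights, 3011 with slide as a random block, 814 with the muscle score, 12 with the fibroblast score) and from 3307 for P15 mutants against P10 controls (1883 with the fibroblast score, 1097 and 654 on slides 3 and 4 alone). Signal over background limits Fgf7 at P15, Fgfr1 and the 6 untested probes.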
